A study of Mus musculus with 3 samples.

Results

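The genes described here are 10 transcription regulators of blood progenitors, taken by name for their known role, by a rule that uses no measured value, although earlier results of these data were known when they were chosen. They are the 7 heptad genes Tal1, Lyl1, Lmo2, Gata2, Runx1, Fli1 and Erg, the further GATA factors Gata1 and Gata3, and the GATA cofactor gene Zfpm1. They are 10 of 55211 genes measured. The samples were 3 cultures of Ba/F3, labelled as replicates 1 to 3. Ba/F3 is a mouse haematopoietic cell line that depends on interleukin-3 (IL-3). The cultures were kept at 37 °C and 5% CO2 in medium with 10% fetal calf serum and 0.2 ng/mL recombinant murine IL-3. The labels name no treatment, genotype or allele, so the cultures form 1 group without a contrast, and all of it describes a long-cultured line and not a primary stem cell. Polyadenylated RNA was sequenced, and the reads in genes summed to between 32044889 and 37180883 per culture.

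In mouse and human blood progenitors the heptad proteins bind DNA together at shared enhancers, many of them near their own genes. TAL1 and LYL1 are basic helix-loop-helix proteins that pair with E proteins, LMO2 is a LIM-only adaptor that holds them to LDB1 and to a GATA factor, RUNX1 binds DNA with CBFB, and FLI1 and ERG are closely related ETS factors. GATA2 acts in stem, progenitor and mast cells, and GATA1 in erythroid, megakaryocytic, mast and eosinophil cells. GATA3 acts in T and innate lymphoid cells, and FOG1, the product of Zfpm1, binds the amino-terminal zinc finger of GATA1 and GATA2.

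All 7 heptad genes were detected, at very unequal levels, and 5 of them averaged at least 80 CPM (reads of the gene per 1000000 reads of the culture). Gata2 was the highest, Lmo2 and Erg were near the bottom of the detected genes, and Gata3 had no read in any culture. Detected means at least 1 CPM in every culture. By that rule 9 of the 10 genes were detected, beside 19.9% of all genes and 45.9% of protein-coding genes. Only Gata3 missed it. Erg passed narrowly. In bulk RNA, fewer cells that express a gene and less RNA per cell cannot be told apart.

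By its markers the line was blood-derived, with some eosinophil and myeloid granule genes expressed beside the general blood cell genes. All 5 blood cell markers were detected, with summed levels of 2145 to 2234 CPM, led by Laptm5 (823 ± 14.8 CPM; SD, n = 3). Eosinophil markers were detected for 3 of 5 (summed 1938 to 2020 CPM), of which Epx, the eosinophil peroxidase gene, at 1769.5 ± 39.0 CPM (SD, n = 3) stood above every heptad gene. Prg2, an eosinophil granule protein gene, averaged 206 ± 2.03 CPM and Siglecf 3.93 ± 0.0783 (SD, n = 3 each). Ccr3 averaged 0.0989 CPM and Ear2 was at 0. Neutrophil and monocyte markers were detected for 4 of 10 (summed 210 to 245 CPM), led by Prtn3 (140 ± 16.4 CPM) and Mpo (69.9 ± 2.06; SD, n = 3 each), both granule enzyme genes, with Csf3r and Ctsg at 0. Elane averaged 0.805 CPM, S100a9 0.0978 and S100a8 0.0194, all below the threshold. B lineage markers were detected for 2 of 9 (summed 20.1 to 22.2 CPM), led by Cd79b (19.5 ± 1.22 CPM; SD, n = 3), with Ebf1, Blnk and Igll1 among those at 0. Endothelial markers were detected for 2 of 9 (summed 321 to 327 CPM, Emcn at 0) and fibroblast markers for 0 of 6 (summed 0.767 to 0.999 CPM). Beside these marker counts, 45.9% of all protein-coding genes were detected. The endothelial sum came from Egfl7 and Pecam1, while Cdh5, which marks endothelium more strictly and was picked after its values were seen, had 1 read in 1 culture.

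**Figure D1:**
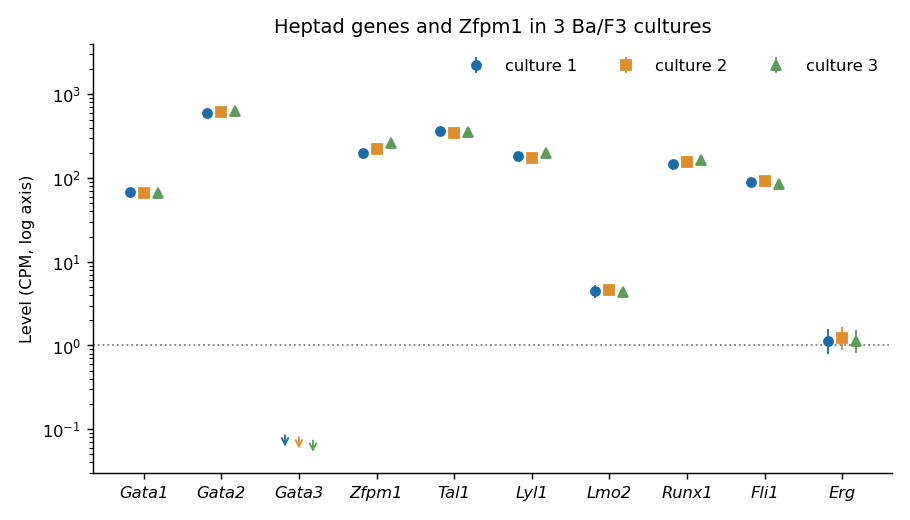
Level of each gene in each culture in CPM on a log axis, with exact 95% Poisson intervals that cover counting error only. The dotted line is 1 CPM, and arrows point down from the limit of 3 reads for Gata3, which had none. Gata2 lies highest, between 598 and 641 CPM, and Erg lies on the line.

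Promoter sequences of 5 of the genes are shown because the heptad factors are known to bind near one another's start sites, and because the set spans the highest level (Gata2), high levels (Tal1, Lyl1, Runx1) and no read (Gata3). Each runs from 250 bases before to 50 bases after a RefSeq transcription start (GRCm38.p6), 5′ to 3′ on the strand of the gene. Capitals mark exact matches on either strand to the GATA words AGATAA and TGATAA, the E-box words CAGATG and CAGCTG, the ETS words CGGAAG and AGGAAG and the RUNX word TGTGGT. A match on the minus strand therefore reads as the reverse complement, such as TTATCT for AGATAA. No match overlapped another in the windows shown, and of genes with several windows the one with a match is given. The windows are chr6:88198414-88198713 (plus strand) for Gata2, chr2:9878551-9878850 (minus) for Gata3, chr4:115056176-115056475 (plus) for Tal1, chr8:84701207-84701506 (plus) for Lyl1 and chr16:92826025-92826324 (minus) for Runx1.
Gata2: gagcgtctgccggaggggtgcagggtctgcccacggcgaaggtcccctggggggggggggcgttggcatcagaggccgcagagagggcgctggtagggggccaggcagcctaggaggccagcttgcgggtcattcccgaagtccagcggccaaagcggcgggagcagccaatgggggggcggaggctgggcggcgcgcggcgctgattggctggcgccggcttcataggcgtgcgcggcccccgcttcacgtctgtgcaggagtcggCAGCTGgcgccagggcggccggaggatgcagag
Gata3: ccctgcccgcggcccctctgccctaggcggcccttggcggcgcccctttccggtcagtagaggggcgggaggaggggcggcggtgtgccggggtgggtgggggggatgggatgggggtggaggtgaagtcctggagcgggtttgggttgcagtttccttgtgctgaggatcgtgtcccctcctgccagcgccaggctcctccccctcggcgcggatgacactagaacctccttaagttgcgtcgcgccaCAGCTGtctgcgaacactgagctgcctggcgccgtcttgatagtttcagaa
Tal1: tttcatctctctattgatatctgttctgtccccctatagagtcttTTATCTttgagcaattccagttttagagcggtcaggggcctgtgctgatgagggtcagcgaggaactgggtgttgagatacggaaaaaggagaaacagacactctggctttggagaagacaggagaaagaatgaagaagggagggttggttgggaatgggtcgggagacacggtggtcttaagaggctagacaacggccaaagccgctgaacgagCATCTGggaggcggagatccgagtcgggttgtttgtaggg
Lyl1: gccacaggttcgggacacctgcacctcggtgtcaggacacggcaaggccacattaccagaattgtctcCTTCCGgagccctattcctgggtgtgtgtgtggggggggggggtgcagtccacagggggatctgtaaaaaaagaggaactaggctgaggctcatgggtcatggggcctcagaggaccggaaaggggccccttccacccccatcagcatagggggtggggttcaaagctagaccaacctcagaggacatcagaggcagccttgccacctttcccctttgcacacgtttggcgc
Runx1: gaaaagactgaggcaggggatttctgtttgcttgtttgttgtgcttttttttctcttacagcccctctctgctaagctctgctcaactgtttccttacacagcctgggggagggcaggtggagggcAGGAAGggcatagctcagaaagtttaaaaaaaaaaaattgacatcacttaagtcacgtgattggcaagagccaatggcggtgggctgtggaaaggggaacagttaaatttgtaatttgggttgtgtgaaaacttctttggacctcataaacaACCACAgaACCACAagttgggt

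RefSeq promoters were matched for 8 of the 10 genes, in 13 windows, all but Fli1 and Lmo2. The Gata2 and Gata3 windows shown each hold CAGCTG close to the start. The other Gata2 window, chr6:88193641-88193940, holds none of the listed words. A link between these words and level was not tested. The Tal1 window holds AGATAA and CAGATG, both on the minus strand, and the Lyl1 window CGGAAG on the minus strand. The Runx1 window holds AGGAAG on its own strand and TGTGGT at a pair of places on the other. Among all 32851 promoter windows of that length, AGATAA occurs in 11.2%, TGATAA in 9.05%, CAGATG in 17.2%, CAGCTG in 16.3%, CGGAAG in 16.9%, AGGAAG in 35.4% and TGTGGT in 16.8%. Of the 13 windows, AGATAA was in 2, TGATAA in 0, CAGATG in 1, CAGCTG in 2, CGGAAG in 2, AGGAAG in 3 and TGTGGT in 1. The composite of an E-box (CANNTG) and GATA after a gap of 9 bases, a spacing known from LMO2 complexes, was in 0 of the 13 and in 0.597% of all windows. These matches describe letters and not binding.

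Gata2 carried most of the GATA reads. Gata2 (ENSMUSG00000015053, GRCm38 chromosome 6, 88193891 to 88207032, plus strand), required for the making and upkeep of blood stem cells, was read at 598, 609 and 641 CPM in cultures 1, 2 and 3, a mean of 616 ± 22.2 (SD, n = 3) and the 98.3 percentile of detected genes. Gata1 (ENSMUSG00000031162, chromosome X, 7959260 to 7978071, minus strand), the erythroid and megakaryocytic GATA factor, was read at 67.5, 66.7 and 65.9 CPM, a mean of 66.7 ± 0.803 (SD, n = 3). The cultures hardly differed in Gata1, and each had far more Gata2. Per kilobase of merged exons, which allows levels of different genes to be compared, Gata2 stood at 110.7, 112.9 and 118.7 CPM per kb and Gata1 at 27.7, 27.3 and 27.0. The Gata2 to Gata1 ratio of these levels was 4.0, 4.13 and 4.39 in the cultures, 4.17 ± 0.200 (SD, n = 3).

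Gata3 (ENSMUSG00000015619, chromosome 2, 9857078 to 9890034, minus strand), the T cell GATA factor, had 0 reads in each culture. A limit of 3 reads, set by choice, equals 0.0936, 0.0885 and 0.0807 CPM. The exact 95% Poisson intervals reach higher, to 0.115, 0.109 and 0.0992 CPM. Gata2 was 4706-fold, 5072-fold and 5852-fold above the 3-read limit of Gata3 per kilobase, and the wider intervals would give lower ratios. The annotated genes that overlap Gata3 (4930412O13Rik, 9230102O04Rik and Gm13256) had no read either. In protein-coding genes as a whole, 34.7% had no read in any culture. Gata4, Gata5 and Gata6, the GATA factors of heart and gut, had none too, so Gata1 and Gata2 were the 2 expressed genes of a family of 6, and Gata2 made up 80.7 ± 0.738% (SD, n = 3) of the family's level per kilobase.

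Zfpm1 (ENSMUSG00000049577, chromosome 8, 122282141 to 122337251, plus strand), which encodes the GATA cofactor FOG1, was read at 199, 220 and 261 CPM, a mean of 227 ± 31.9 (SD, n = 3). Culture 3 was highest and culture 1 lowest. No other member had so wide a relative spread. Per kilobase, Zfpm1 exceeded Gata1 by 2.05, 2.29 and 2.76 times in the cultures, 2.37 ± 0.362 (SD, n = 3). The second FOG gene, Zfpm2, had no read.

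Both TAL-type genes were expressed strongly. Tal1 (ENSMUSG00000028717, chromosome 4, 115056426 to 115071755, plus strand), essential for blood formation in the mouse embryo, was read at 369, 347 and 353 CPM, a mean of 356 ± 11.3 (SD, n = 3). Lyl1 (ENSMUSG00000034041, chromosome 8, 84701449 to 84704940 in the deposited table, plus strand), its paralogue with a shared role in adult stem cells, was read at 182, 176 and 199 CPM, a mean of 186 ± 11.8 (SD, n = 3). Tal1 gave more reads, but its transcript is longer. Per kilobase, Lyl1 stood at 101.2, 97.8 and 110.5 and Tal1 at 84.2, 79.3 and 80.6, without overlap, and Lyl1 exceeded Tal1 by 1.27 ± 0.0903 times (SD, n = 3). By reads alone the direction is the other way, at 0.522 ± 0.0371. Tal2, the third gene of the group, had 1 read in 2 of the cultures and 0 in the other.

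Lmo2 was low beside the factors it is known to join. Lmo2 (ENSMUSG00000032698, chromosome 2, 103957986 to 103981878, plus strand) had 142, 157 and 161 reads, or 4.43, 4.63 and 4.33 CPM, a mean of 4.47 ± 0.155 (SD, n = 3) and the 11.4 percentile of detected genes. The cultures lay within counting error of each other. Per kilobase Lmo2 was 0.0254 ± 0.00143 times Tal1 (SD, n = 3). Lmo4, the LIM-only paralogue that also binds LDB1, stood above Lmo2, with Lmo2 at 2.05, 2.14 and 2.0 CPM per kb and Lmo4 at 19.5, 19.1 and 19.1 CPM per kb in the cultures. Lmo2 thus made up 9.67 ± 0.352% (SD, n = 3) of the level per kilobase of the 4 LMO genes. Lmo1 had no read and Lmo3 had 1 in a single culture.

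Runx1 (ENSMUSG00000022952, chromosome 16, 92601466 to 92826149, minus strand), needed for the emergence of blood stem cells from endothelium, was read at 149, 157 and 163 CPM, a mean of 156 ± 6.80 (SD, n = 3). The other RUNX genes were expressed beside it. Per kilobase of merged exons Runx1 stood at 12.4, 13.0 and 13.5, Runx2, the bone RUNX factor, at 1.97, 2.02 and 1.92, and Runx3, active in T and NK cells, at 17.3, 17.0 and 16.7. The Runx1 model is 12025 bases of merged exons, while its longest transcript has 5861. With longest transcripts as lengths, Runx1 lay above Runx3 in every culture, at 25.4, 26.7 and 27.7 against 22.3, 21.9 and 21.5, so the order of Runx1 and Runx3 depends on the length used.

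Of the ETS pair, Fli1 was expressed and Erg was at the detection limit. Fli1 (ENSMUSG00000016087, chromosome 9, 32422204 to 32542861, minus strand), an activator of megakaryocytic and stem cell genes, was read at 89.6, 92.6 and 85.6 CPM, a mean of 89.3 ± 3.49 (SD, n = 3). Erg (ENSMUSG00000040732, chromosome 16, 95359169 to 95586593, minus strand), which stem cells need for self-renewal, had 36, 42 and 42 reads, or 1.12, 1.24 and 1.13 CPM, a mean of 1.16 ± 0.0654 (SD, n = 3). The exact 95% Poisson intervals of Erg, 0.787 to 1.56, 0.893 to 1.68 and 0.814 to 1.53 CPM, all include the threshold of 1 CPM. Fli1 exceeded Erg by 79.3, 74.2 and 75.4 times per kilobase, 76.3 ± 2.67 (SD, n = 3).

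Fli1 and Erg each lie beside another ETS gene that is read from the opposite strand. Ets1, 93.4 kb from Fli1, had 2, 2 and 0 reads in cultures 1, 2 and 3. Ets2, 115 kb from Erg, stood at 65.6, 67.2 and 67.0 CPM. At the locus on chromosome 9 the expressed gene of the pair was thus Fli1 and not Ets1, and at the locus on chromosome 16 it was Ets2, with Erg at the threshold. The genes on the far sides, Kcnj1 next to Fli1 and Kcnj15 next to Erg, which encode potassium channels, had no read.

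**Figure D2:**
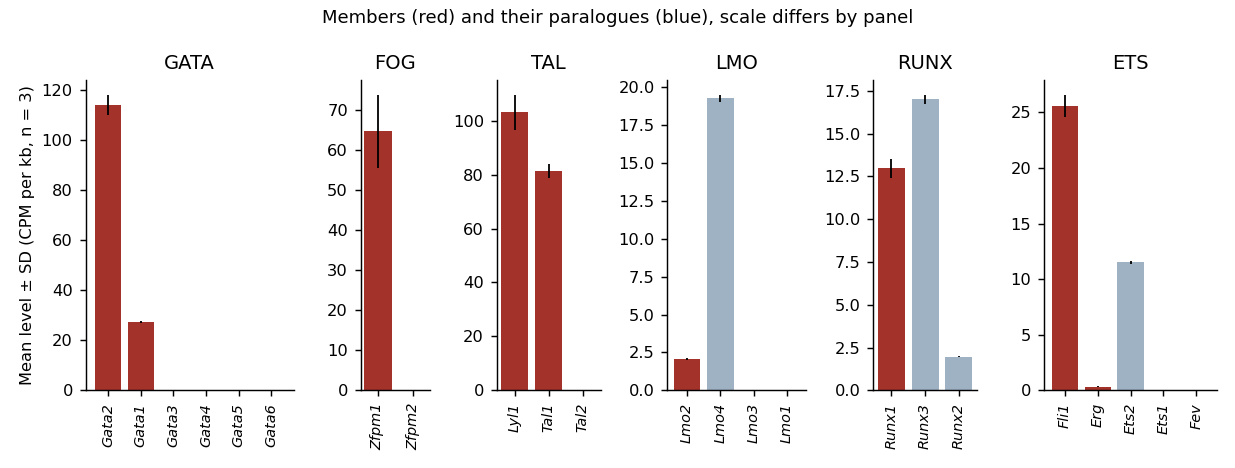
Mean level ± SD over the 3 cultures in CPM per kb of merged exons for each gene and its paralogues, 1 panel per family, each with its own axis from 0. The described genes are red and stand left of their paralogues in blue. Gata2, Zfpm1, Lyl1 and Fli1 lead their panels, and Tal1 stands next below Lyl1. Lmo2 lies below Lmo4, and Runx1 below Runx3 at this choice of length. The ETS panel leaves out other ETS genes, some of them higher than Fli1 per kilobase.

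Ordered by level per kilobase of merged exons, the genes ran Gata2 (114 ± 4.11 CPM per kb), Lyl1 (103 ± 6.55), Tal1 (81.4 ± 2.58), Zfpm1 (64.7 ± 9.12), Gata1 (27.4 ± 0.329), Fli1 (25.6 ± 1.0), Runx1 (13.0 ± 0.565), Lmo2 (2.06 ± 0.0714) and Erg (0.336 ± 0.0189), all means ± SD over the 3 cultures. Every gene exceeded the next in all 3 cultures, and no neighbouring ranges overlapped. Gata2 and Lyl1, whose means differed by 1.11 times, and Gata1 and Fli1, by 1.07 times, were the closest neighbours. With longest transcripts as lengths the order was the same, but Fli1 (25.8 to 27.9) and Runx1 (25.4 to 27.7) overlapped. With 3 paired values an exact test cannot go below a two-sided p of 0.25, so the ranges are given instead. Of the 9 detected genes, 7 lay above 8.65 CPM per kb, the median of the 10991 detected genes, and the median over the 9 was 27.4. The 10 genes together took 0.166%, 0.167% and 0.177% of the reads.

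**Figure D3:**
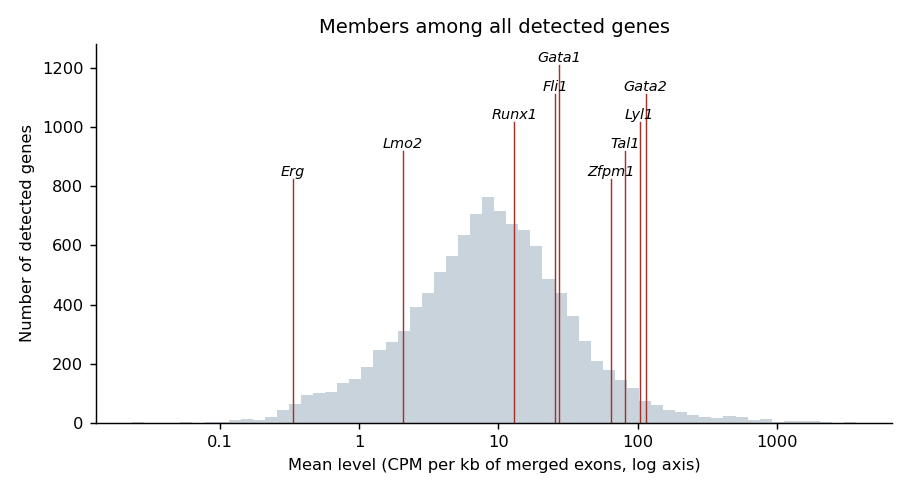
Number of detected genes by mean level in CPM per kb of merged exons on a log axis, with red lines at the 9 detected members. Gata2, Lyl1, Tal1 and Zfpm1 sit in the upper tail, Gata1, Fli1 and Runx1 right of the peak, and Lmo2 and Erg in the lower tail.

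The cultures differed in several of the genes by more than Poisson counting noise of reads, by small amounts except in Zfpm1. A chi-square test of Poisson heterogeneity on whole reads, adjusted by Benjamini-Hochberg over all 13141 genes with a mean of at least 10 reads, called 6 of the 9 genes tested, beside 32.8% of all genes tested. The test calls well-read genes more readily. Of the 7 members with at least 2000 reads on average 6 were called, beside 50.8% of all genes with that many. That cut-off was not planned beforehand. Above it the members still ranged from 2291 mean reads (Gata1) to 21208 (Gata2), so nothing is read from this count. The test compares these libraries and not conditions.

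Zfpm1 differed most, with culture 3 1.32 times culture 1 (chi-square test, adjusted p = 1.1e-66), and it stayed called without any 1 culture. By the chi-square test Lyl1 differed by 1.13 times between its highest and lowest culture (adjusted p = 4.0e-11) and Gata2 by 1.07 times (adjusted p = 1.1e-11). In Zfpm1, Gata2, Lyl1 and Runx1 the highest culture was culture 3, which makes 4 of the 9 genes tested, beside 30.4% of all genes tested. Of the other members tested, 3 were highest in culture 2 and 2 in culture 1. With so few genes, nothing is read from these counts. In the same chi-square test Runx1 differed by 1.09 times (adjusted p = 2.6e-04), Fli1 by 1.08 times (adjusted p = 0.0267) and Tal1 by 1.06 times (adjusted p = 5.5e-05). Not called by the chi-square test were Gata1 (1.02 times, adjusted p = 0.816), Lmo2 (1.07 times, adjusted p = 0.892) and Erg (1.10 times, adjusted p = 0.929). Lmo2 and Erg had few reads, so that a missing call does not show them to be steadier, whereas Gata1 had 2163 to 2450 reads per culture.

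Several of these calls rested on a single culture. Without culture 3 the chi-square calls of Gata2 (adjusted p = 0.184), Lyl1 (adjusted p = 0.204), Runx1 (adjusted p = 0.0535) and Fli1 (adjusted p = 0.445) ended, which left 2 of 9, Zfpm1 and Tal1. Without culture 1 the chi-square calls of Tal1 (adjusted p = 0.501) and Runx1 (adjusted p = 0.232) ended, and without culture 2 that of Fli1 (adjusted p = 0.180). Of all genes tested, 11.1% were called without culture 1, 29.5% without culture 2 and 20.2% without culture 3, beside 32.8% with all 3. The median ratio of highest to lowest culture was 1.08 over the 9 genes, beside 1.11 over all genes tested and 1.08 over the 10126 genes with at least 100 reads on average. Mitochondrial genes took 1.68%, 1.31% and 1.04% of the reads in cultures 1, 2 and 3, and depth was highest in culture 3. Their part in the differences was not tested.

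**Figure D4:**
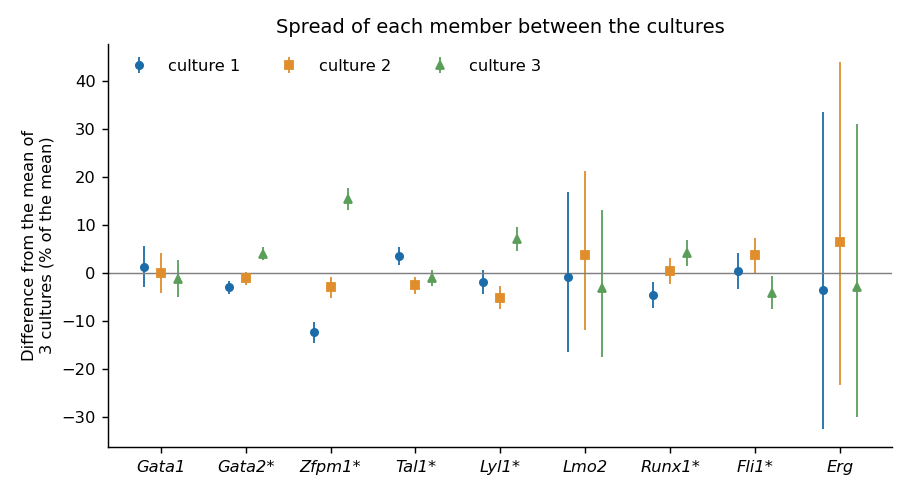
Difference of each culture from the mean of the 3 cultures, in percent of that mean, for the 9 genes tested, with exact 95% Poisson intervals. Asterisks mark genes called by the chi-square test after adjustment. Zfpm1 shows the widest gap relative to its intervals, with culture 1 lowest and culture 3 highest, and the intervals of Lmo2 and Erg are wide.

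Genes of the proteins that the heptad factors are known to work with were mostly detected. Of 20 partners 17 were detected (85.0%), beside 45.9% of protein-coding genes, with a median of 85.0 CPM among those detected, beside 39.7 CPM among all detected genes. Of the 17 tested 8 differed between cultures, beside 32.8% of all genes tested and 50.8% of those with at least 2000 reads, so the count lies between these shares. Chd4, an ATPase of the NuRD complex bound by FOG1, averaged 528 ± 41.9 CPM, Cbfa2t3, whose product ETO2 is a corepressor in TAL1 complexes, 481 ± 18.6 and Ssbp3, which stabilises LDB1, 205 ± 0.472 (SD, n = 3 each). Runx1t1 had 1 read in a single culture, and Ssbp2 and Zfpm2 had none.

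The genes of direct DNA-binding and bridging partners named next, chosen for their role, were all detected. Ldb1, whose product LMO2 binds, stood at 88.3, 78.6 and 80.1 CPM and Cbfb, the partner of RUNX proteins, at 167, 177 and 171. Culture 1 was highest for Ldb1 and lowest for Cbfb. The E protein genes Tcf12 (118 ± 2.38 CPM), Tcf3 (85.0 ± 12.4) and Tcf4 (32.9 ± 1.31; SD, n = 3 each) encode the partners of TAL1 and LYL1. Tcf3 had 75.1, 81.1 and 98.8 CPM, highest in culture 3 (chi-square test, adjusted p = 2.0e-26, 1.32 times). Per kilobase of merged exons Lmo2 stood at 2.05, 2.14 and 2.0 CPM, against 19.2, 17.1 and 17.4 for Ldb1, so the adaptor gene lay far below that of the protein it binds.

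Among 19 further paralogues 9 were detected and 3 of those 9 differed between cultures, both close to the shares of 45.9% of protein-coding genes detected and 32.8% of genes tested that differed. The ETS genes Etv6 (497 ± 8.80 CPM), Elf4 (212 ± 10.6) and Elf1 (171 ± 3.90; SD, n = 3 each) led, and 6 had no read, Gata4, Gata5 and Gata6 among them. Etv6 encodes an ETS repressor needed by adult stem cells.

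Genes known to be bound or used downstream of these factors were expressed unevenly. The counts that differed between cultures in these lists stand beside 32.8% of all genes tested. Of 18 erythroid genes measured, 11 were detected and 4 of 12 tested differed between cultures, led by Tfrc (584 ± 15.6 CPM), the transferrin receptor gene, Nfe2 (225 ± 5.98), a partner in globin regulation, and Hba-a1 (182 ± 13.3; SD, n = 3 each), an alpha globin gene. Hba-a2, its near-identical copy, was listed at 0.152 CPM, and how reads were shared between the copies is uncertain. Alas2 and Slc4a1, genes of late red cells, had no read. Of 15 megakaryocyte genes 4 were detected and 3 of 7 tested differed, with Itga2b (571 ± 40.1 CPM), the integrin αIIb gene, and Gp6 (10.1 ± 1.44; SD, n = 3 each), a collagen receptor gene, beside Nfe2. Pf4 and Clec1b had 1 read in a single culture and Gp1bb none.

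Of the genes of mast cells and basophils, a group that GATA2 is known to regulate, 4 of 13 were detected and 1 of 5 tested differed. Fcer1g (79.0 ± 2.90 CPM), Mitf (9.14 ± 0.10) and Ms4a2 (5.46 ± 0.978; SD, n = 3 each) led, and Fcer1a, Mcpt8 and Tpsb2 had no read. Stem and progenitor genes were detected for 7 of 19, and 5 of 8 tested differed. Mecom (932 ± 65.2 CPM), Etv6 and Myb (312 ± 12.1; SD, n = 3 each) led, and Cd34, Hoxa9 and Meis1, which mark or drive early progenitors, had no read. The T cell list, which goes with Gata3, had 3 of 16 detected, and the lowest adjusted p of these 3 in the chi-square test was 0.271, for Tcf7. Lck (6.22 ± 0.343 CPM), Cd3g (4.18 ± 0.228) and Tcf7 (2.39 ± 0.360; SD, n = 3 each) were low and Cd8a, Bcl11b and Rag1 had no read. Beside these counts, 45.9% of all protein-coding genes were detected, and 32.8% of all genes tested, or 50.8% of those with at least 2000 reads, differed between cultures. With 3 to 12 genes tested per list, nothing is read from the counts that differed. The median level of the detected genes was 30.2 CPM in the erythroid list, 118 in the megakaryocyte list, 7.30 in the mast cell list, 136 in the stem cell list and 4.18 in the T cell list, beside 39.7 among all detected genes.

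**Figure D5:**
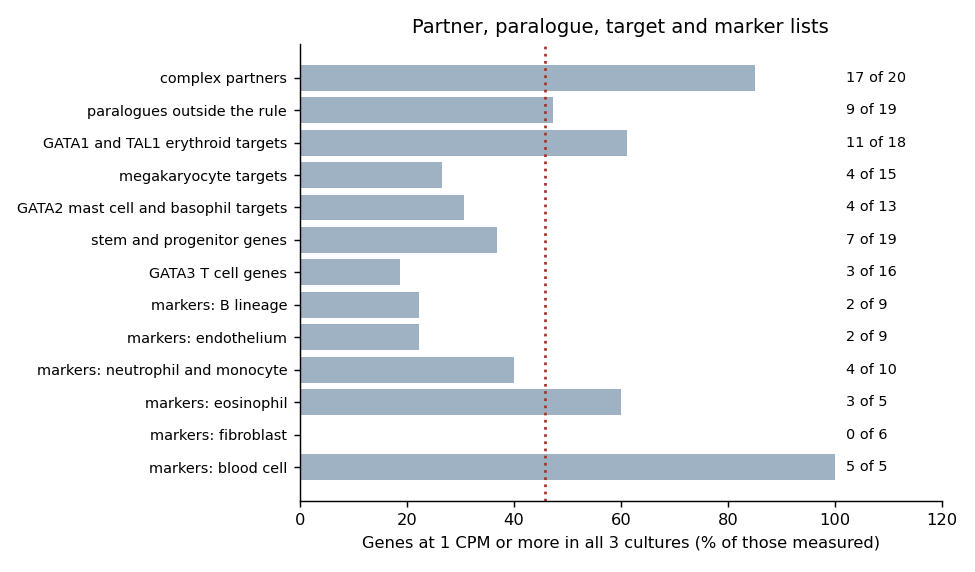
Percentage of the measured genes of each list that reached 1 CPM in all 3 cultures, with the counts at the right and a dotted line at 45.9%, the share of all protein-coding genes. Complex partners (17 of 20), paralogues (9 of 19), erythroid genes (11 of 18), eosinophil markers (3 of 5) and blood cell markers (5 of 5) lie to the right of the line, and T cell genes (3 of 16) far to the left.

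The genes next to the members covered a wide range of levels. Rpn1, a gene of the oligosaccharyltransferase 88.6 kb from Gata2 at lower coordinates, stood at 396 ± 8.23 CPM, and Dnajb8, 15.2 kb away at higher coordinates, had 2, 1 and 0 reads in cultures 1, 2 and 3. Stil and Pdzk1ip1, on either side of Tal1, stood at 67.9 ± 2.91 and 82.0 ± 2.40 CPM. Caprin1 and Fbxo3, on either side of Lmo2, stood at 622 ± 22.0 and 99.98 ± 2.24 CPM, so both neighbours far exceeded Lmo2. Taf3, 24.5 kb from Gata3, which had no read, stood at 30.3 ± 0.737 (SD, n = 3 for all). Clic6, next to Runx1 at lower coordinates, had 1 read in a single culture, and Setd4, next at higher coordinates, averaged 4.37 ± 0.841 CPM.

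Reads were 50 bases long, and words of that length were used to ask whether members could share reads with other genes. Gata1, Gata2, Zfpm1, Tal1, Lyl1, Lmo2 and Erg shared 0 such words with transcripts of any other annotated gene, on either strand, so no paralogue could take an exactly matching read from them. Fli1 shared 0.292% of its words on the same strand, with many genes, and 0.262% on the opposite strand. Runx1 shared 0.470% on the opposite strand with Gm26626, which had no read. Gata3 shared 0.731% on the same strand with 9230102O04Rik and 1.49% on the opposite strand with Gm13256, both without a read. Nfix spans Lyl1 on the opposite strand and stood at 65.1 ± 4.28 CPM (SD, n = 3), but its annotated transcripts share no word with Lyl1. Whether the authors' counting used strand is not given in the sources used here.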

How the data were processed

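RNA of 3 Ba/F3 cultures was sequenced from strand-marked libraries as 50-base single-end reads. Per the series' design text, HISAT2 aligned them to GRCm38 and the in-house program GenSum counted them; neither versions nor the strand setting and annotation are stated in the sources used here. The authors' deposited values are log2(reads per 10000000 + 1). Undoing the log gave whole reads for 100% of entries within a tolerance of 0.01 reads, and a read was worth 0.0312, 0.0295 and 0.0269 CPM. Molecules were not tagged before amplification, so copies of the same molecule cannot be told apart. Every interval and limit treats reads as independent, covers their counting error alone and may be too narrow.

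The columns of cultures 1 and 2 follow the gene identifiers and that of culture 3 follows the symbols and coordinates, in another row order. Of 55486 rows, culture 3 was matched by exact coordinates in GENCODE M21 (GRCm38) for 54907 and by a unique symbol for 339 (Lyl1 among them), and 240 had no match. Rows that led to the same gene (6) were left out, as were 29 genes matched for culture 3 whose identifier has no row for cultures 1 and 2, which left 55211 genes. The authors' average is the row mean, mixes genes and was not used.

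CPM were scaled to the reads of each column. Lengths are merged exons. Python 3.11.15, NumPy 2.4.6 and SciPy 1.17.1 were used. On simulated Poisson reads, changes in 1 culture by 1.2, 1.5, 2 and 4 times were called for 66.0%, 88.0%, 94.0% and 100% of 50 genes each, and 0.516% of 12993 unchanged genes. These reads were drawn from the model that the test assumes. The simulation therefore cannot show how often genes are called where libraries vary beyond counting. The members, the 7 pathway lists and the 6 marker lists were chosen with earlier results of these data known, although the rule for the members uses no measured value. Named from each partner, paralogue and target list were the 3 highest detected genes and up to 3 not detected, besides neighbours by position and the direct binding partners. Marker lists had no such rule. The erythroid list names 1 gene that was not measured here. No gene was named for likeness of pattern, since 3 cultures of 1 group are too few for a correlation. Alternatives covered detection thresholds, scaling, pseudocounts, read minimums, lengths, unjoined rows and leaving out each culture.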

Additional observations from a re-analysis of the deposited data

How the results depend on the processing

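No paired analysis was possible because the cultures form 1 group. The number of members detected was 9 at 0.5 CPM, 9 in at least 1 culture, 7 at 5 CPM (Lmo2 and Erg fell below it) and 9 without any 1 culture. The number called by the chi-square test was 6 of 9, and 2 to 5 when a culture was left out, lowest without culture 3. It was 5 with trimmed mean of M values scaling, under which the chi-square test did not call Fli1 (adjusted p = 0.0804), and 6 with median of ratios scaling, no read minimum or a minimum of 100 reads. Of all genes tested, the share called was 32.8% in the main setting and 11.1%, 29.5% and 20.2% without cultures 1, 2 and 3. It was 34.3% under either scaling, 17.0% without a read minimum and 40.2% with a minimum of 100 reads. Ratios moved with the length used. With longest transcripts, Gata2 over Gata1 was 4.92, Gata2 over the 3-read limit of Gata3 6365, Zfpm1 over Gata1 1.91 and Lmo2 over Tal1 0.0310. Without length correction, which compares read yield and not molecules, they were 9.24, 7069, 3.40 and 0.0125, and Lyl1 over Tal1 turned round to 0.522. Merged exons span 1800 bases in Lyl1 and 4379 in Tal1. Levels of the members moved by less than 1 SD under both scalings. Levels at other pseudocounts are on another log scale. The alternatives of order per length, of read minimums for single genes and of detection without a culture were chosen after seeing the data. Depth limits Erg, with 36 to 42 reads per culture, and Gata3, for which a limit of 3 reads was set by choice.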

Other observations

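The rows of the deposited table can be misread for these genes. Culture 3 on the row with the identifier of Gata2 holds the value of Eif5a, a translation factor gene, at 727 CPM, beside 641 CPM for Gata2 itself. On the Zfpm1 row it holds Pdia4, a disulfide isomerase gene of the endoplasmic reticulum, at 232 CPM, beside 261 for Zfpm1, and on the Tal1 row Mob1a at 391 CPM, beside 353 for Tal1. In each case the row pairs genes of similar level. On the deposited rows Gata2 would average 645 CPM, against 616 after the join, Tal1 369 against 356 and Lmo2 4.64 against 4.47. The Erg row would hold 0.968 CPM for culture 3, below the detection threshold, and the row order alone would then make Erg undetected.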
